A study of Danio rerio with 4 samples.

Results

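The miRNAs of whole zebrafish larvae that had received no BDE47 were compared between a blank control, labelled wild type, and a vehicle control that had received 0.1% DMSO, the solvent in which the other larvae of the series were given the flame retardant BDE47. Both libraries were made from Tuebingen larvae at 6 dpf, and 40 to 50 larvae were pooled for the RNA of a library. The vehicle larvae were exposed from 5 to 6 hpf until collection. No source used here says what the medium of the blank larvae held, so the absence of DMSO there rests on the word blank. The comparison covers 2 of the 4 libraries of the series, the others being 5 μg/L and 500 μg/L BDE47 with the same 0.1% DMSO. A miRNA was included where its normalized counts averaged 10 or more over the 4 libraries, which held for 234 of the 245 zebrafish miRNAs in the deposited table. There was 1 library for each condition, so no difference below has a replicate check, and every value describes these libraries.

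A miRNA is a short RNA that is cut from a hairpin precursor, loaded into an Argonaute protein and guided to messenger RNAs by pairing with its seed, after which the messenger is less translated and often degraded. Many miRNAs are transcribed together from neighbouring genes, and a hairpin can give an RNA from each of its arms, written 5p and 3p. In vertebrate larvae, several miRNAs are so restricted to 1 kind of cell that they serve as marks of muscle, liver, blood, neurons or skin. DMSO is an amphipathic solvent widely used to bring poorly soluble compounds into fish water, and a vehicle control shows the state of larvae that met the solvent alone.

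Each library had been scaled by a size factor before deposit, 0.933 for the blank and 1.09 for the vehicle. Reads assigned to the listed miRNAs numbered 8858169 in the blank and 10150872 in the vehicle, and the 4 libraries ranged from 8858169 to 10357704. Ratios are given as log2 of the vehicle over the blank after adding 1 to the normalized counts, so positive values mean more in the vehicle. The 95% intervals behind them were computed from the reads by the exact Clopper-Pearson method and describe counting error alone, as copies made by PCR are not separate molecules. The 11 miRNAs left out by the filter held 22 reads in the blank and 35 in the vehicle, with at most 11 reads for any of them in either library. Of these, miR-430i of the early embryo is an example.

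The larvae without BDE47 gave most of their miRNA reads to very few miRNAs. The 10 most abundant took 73.3% of the listed reads of the blank and 72.0% of those of the vehicle, and 9 of these 10 were shared by both libraries. A share of reads is not a share of molecules, because adaptors join some small RNAs better than others. miR-192, a miRNA of the gut and liver epithelium, took 15.9% of the blank and 18.1% of the vehicle. miR-181a-5p, which is known in lymphocytes and in nervous tissue, took 17.4% of the blank and 15.2% of the vehicle. These exchanged the first rank between the libraries, and together they held 33.3% of the reads in each.

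The next ranks belonged to a sensory miRNA and to miRNAs encoded in the Hox clusters. miR-182-5p, which marks hair cells, photoreceptors and other sensory neurons, took 9.24% of the blank and 8.88% of the vehicle, and its neighbour miR-183 took 2.03% and 2.21%. The 6 entries of miR-10, whose genes lie between Hox genes and which represses some of them in zebrafish, summed to 25.4% of the blank and 24.2% of the vehicle. Of these, miR-10b held 7.85% and 6.87%, miR-10c 6.71% and 6.45%, miR-10d-5p 6.00% and 6.15%, and miR-10a-5p 4.85% and 4.72%. By the number in the name, miR-10 was thus the largest group of either library.

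**Figure D1:**
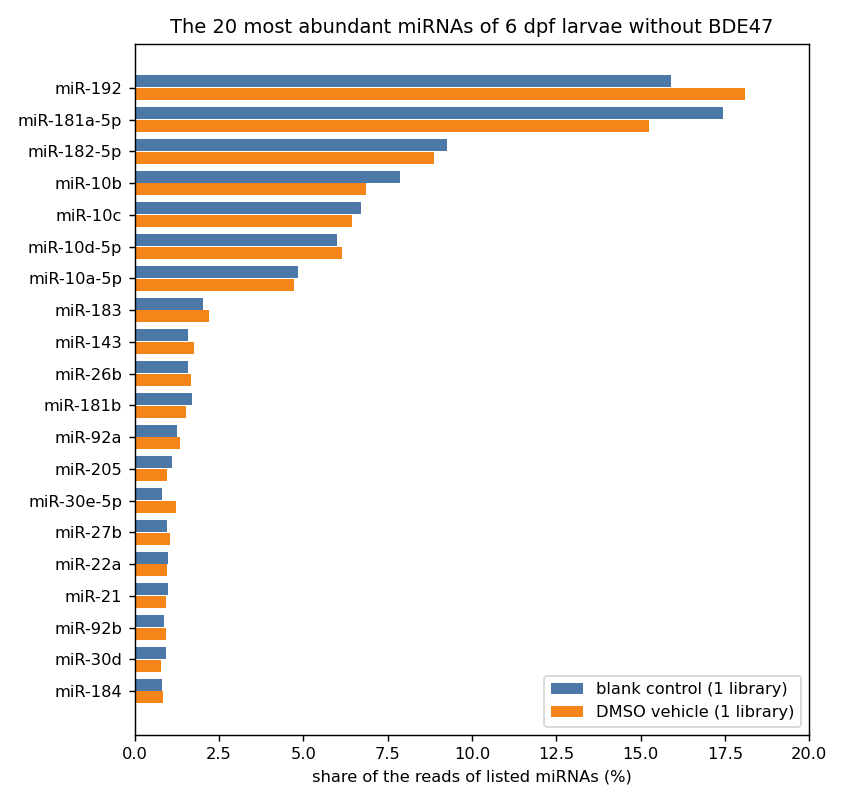
Share of the reads of listed miRNAs in percent (horizontal axis, from 0) for the 20 most abundant miRNAs by mean share, in the blank control (blue bars) and the DMSO vehicle (orange bars), 1 library each and so without error bars. miR-192 and miR-181a-5p exchange the first rank, miR-10b, miR-10c, miR-10d-5p and miR-10a-5p follow miR-182-5p, and the remaining 13 lie below 2.5%.

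Below these, no miRNA of the first 20 held more than 2.21%. They were miR-143 of smooth muscle (1.59% of the blank and 1.76% of the vehicle), miR-26b (1.57% and 1.65%), miR-181b (1.69% and 1.53%) and miR-92a of the miR-17 to miR-92 clusters (1.26% and 1.33%). They also included miR-205 of the epidermis (1.11% and 0.954%), miR-30e-5p (0.801% and 1.23%), miR-27b (0.967% and 1.03%), miR-22a (0.978% and 0.956%) and miR-21 (0.981% and 0.925%). The last were miR-92b (0.851% and 0.937%), miR-30d (0.914% and 0.761%) and miR-184 of the lens (0.811% and 0.821%). Of the 20, 9 were higher and 11 lower in the vehicle, with log2 ratios from -0.29 for miR-30d to 0.59 for miR-30e-5p and a median absolute log2 ratio of 0.10. miR-30e-5p was the only one of them past 1.5-fold.

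miRNAs that mark organs were looked up, and every organ on the list gave reads in both libraries. Of all 245 listed miRNAs, however, 241 had reads in the blank and 244 in the vehicle. The presence of reads therefore cannot check the label of whole larvae. Skeletal muscle was represented by miR-133a-3p, with 26891 reads in the blank and 32462 in the vehicle, and by miR-206, with 3206 and 2637. miR-122, the characteristic miRNA of hepatocytes, had 5130 and 4839 reads. miR-216b of the exocrine pancreas had 15543 and 19204.

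The blood lines were present at lower levels. miR-451 of red blood cells had 1548 reads in the blank and 1583 in the vehicle, and miR-223 of myeloid cells 235 and 256. miR-126a-5p of the endothelium had 10175 and 17291. Of the nervous system, miR-9-5p of neural progenitors had 30632 and 38903 reads and the neuronal miR-124 1835 and 3544. miR-140-3p of cartilage had 63095 and 66965. The reads in this and the preceding paragraph are not scaled, and the vehicle had more listed reads. After scaling, miR-451, miR-223 and miR-140-3p were lower in the vehicle, and miR-126a-5p, miR-9-5p and miR-124 were higher. The miR-430 group, which clears maternal messengers in the early zebrafish embryo, was close to gone at this age, at 0.00533% of the listed reads of the blank and 0.00523% of the vehicle.

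Organ groups took very different shares of a library. The gut and liver list summed to 16.6% of the blank and 18.8% of the vehicle, nearly all of it miR-192. The sensory list of miR-96, miR-182 and miR-183 summed to 11.3% and 11.1%. The muscle list of miR-1, miR-133, miR-206 and miR-499 summed to 0.467% and 0.479%. The sensory and muscle shares were close between the libraries, at ratios of vehicle over blank of 0.98 and 1.02. For the gut and liver list the ratio was 1.13. In whole larvae, fewer cells of a type and less RNA per cell cannot be told apart, here or in any difference below.

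The 2 libraries without BDE47 were close for most miRNAs, and the largest differences pointed towards the vehicle. Across 234 miRNAs, Spearman's rho between the levels of the libraries was 0.993, a description in which every point shares the same 2 libraries. The median absolute log2 ratio was 0.19, the median log2 ratio 0.032, and 86.8% of the miRNAs stayed within 1.5-fold, with 65.4% within 1.2-fold. By any amount, 131 (56%) were higher in the vehicle and 103 lower. More than 2-fold higher in the vehicle were 3 miRNAs, a share of 1.28% of those compared, and 0 were more than 2-fold lower. Past 1.5-fold, 26 were higher (11.1%) and 5 lower (2.14%). With the median ratio of the controls set to 1 in place of the size factors, 20 were higher, and miR-142a-5p, miR-459-5p, miR-216a, miR-301c, miR-196a and miR-30e-5p were within 1.5-fold. The 26 were spread over 17 numbers of the nomenclature and held 1.59% of the listed reads of the blank and 2.55% of those of the vehicle.

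Counting error was small beside many of these differences. The median half-width of the counting interval was 0.072 on the log2 scale, and the interval left out 0 for 167 miRNAs (71.4%), with 100 higher (42.7%) and 67 lower (28.6%) in the vehicle. Testing the reads by Fisher's exact test (two-sided, Benjamini-Hochberg adjusted) placed 170 (72.6%) under an adjusted p of 0.05. It set each miRNA against the remaining listed reads, without the size factors behind the ratios and intervals. That test compares these libraries and not the conditions. Differences were wider at low levels. The 15 miRNAs under 100 normalized counts had a median absolute log2 ratio of 0.31 with a median half-width of 0.86, and 0 of their intervals left out 0. The 67 miRNAs of at least 10000 normalized counts had a median absolute log2 ratio of 0.16 with a half-width of 0.024, and 62 of their intervals left out 0.

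**Figure D2:**
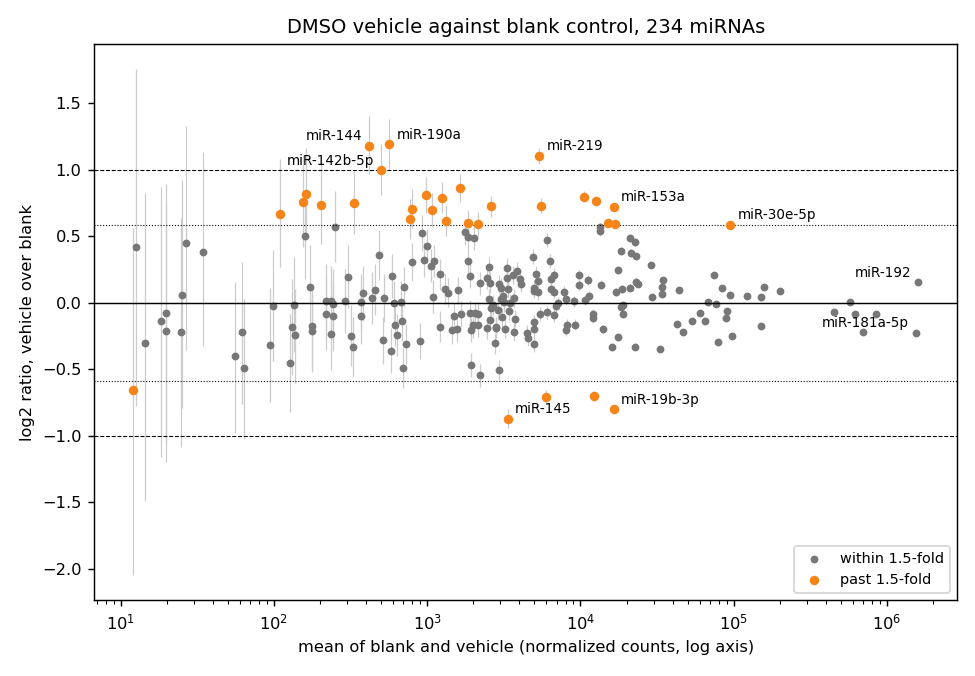
Log2 ratio of the vehicle over the blank (vertical axis) against the mean of both libraries in normalized counts (horizontal log axis) for 234 miRNAs, with exact 95% counting intervals as grey bars. Dashed lines mark 2-fold and dotted lines 1.5-fold, and orange points are the 31 miRNAs past 1.5-fold, 26 above and 5 below 0.

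The 3 miRNAs past 2-fold are known from different cells. miR-190a, which in humans lies in an intron of the talin 2 gene, had 344 normalized counts in the blank and 787 in the vehicle, a log2 ratio of 1.19 (1.01 to 1.38). In the 5 μg/L and 500 μg/L BDE47 libraries it had 354 and 254, so the vehicle stood above the other libraries. Its paralog miR-190b had 9411, 16005, 8956 and 8469 in the same order, a log2 ratio of 0.77 (0.73 to 0.80) between the controls. The vehicle was the highest for both paralogs. The choice of miRNAs by the vehicle and the blank favours such outer values of the vehicle, here and below.

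miR-144, which is made in red blood cell precursors from the same transcript as miR-451, had 256 normalized counts in the blank and 581 in the vehicle. Its log2 ratio was 1.18 (0.96 to 1.40), from 239 and 634 reads, and the BDE47 libraries held 188 and 180.5. The vehicle was again the highest of the 4 libraries, and the blank was the next. miR-451, the other marker of red blood cells, went the other way, with 1660.0 in the blank and 1451 in the vehicle, a log2 ratio of -0.19 (-0.30 to -0.09). The counting intervals of these neighbours lay apart.

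miR-219, which promotes the maturation of oligodendrocytes, the myelin-forming cells, had 3408 normalized counts in the blank and 7323 in the vehicle, a log2 ratio of 1.10 (1.04 to 1.16). The BDE47 libraries held 3111 and 2143, both below the blank. miR-338, the other myelin-related miRNA, had a log2 ratio of -0.06 (-0.13 to 0.02), so only miR-219 of that pair stood apart between the controls. miR-142b-5p lay just under the threshold, with 336 normalized counts in the blank and 671 in the vehicle and a log2 ratio of 0.997 (0.81 to 1.19).

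Further differences towards the vehicle lay in miRNAs of blood cells and inflammation. miR-142 is made in blood cells and is needed for normal neutrophils in zebrafish. Its entry miR-142a-3p had 115 normalized counts in the blank and 194.3 in the vehicle (log2 ratio 0.75, interval 0.42 to 1.11), and miR-142a-5p had 1051 and 1612 (log2 ratio 0.62, interval 0.50 to 0.73). All 3 entries of miR-142 were thus past 1.5-fold, miR-142a-5p only with the size factors as deposited or the listed reads. The other white blood cell miRNAs lay below 0, as miR-150 of lymphocytes had a log2 ratio of -0.31 (-0.46 to -0.16) and miR-223 -0.10 (-0.36 to 0.16). Of this list, 3 of 5 were past 1.5-fold and higher, beside 11.1% of all miRNAs, and the median log2 ratio was 0.62 beside 0.032 over all 234 miRNAs.

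miR-146, which dampens Toll-like receptor signalling in mammals, gave both of its entries past 1.5-fold. miR-146a had 7689 normalized counts in the blank and 13344 in the vehicle (log2 ratio 0.80, interval 0.75 to 0.84), and miR-146b had 917 and 1585 (log2 ratio 0.79, interval 0.67 to 0.91). Here the vehicle was not alone, because miR-146a had 12267 at 500 μg/L and 4854 at 5 μg/L, and miR-146b had 1401 and 803. miR-155, the other inflammation miRNA, had a log2 ratio of -0.01 (-0.37 to 0.34). The median log2 ratio of this list of 3 entries was 0.79, which is the value of miR-146b.

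Beside miR-219, 3 miRNAs of the nervous system were past 1.5-fold, all higher in the vehicle. They were 1 of 3 neurogenic, 1 of 8 neuronal and 1 of 5 neuronal activity entries, beside 11.1% of all miRNAs. miR-124, the most characteristic miRNA of neurons, had 1968 normalized counts in the blank and 3248 in the vehicle (log2 ratio 0.72, interval 0.64 to 0.80). miR-153a, which controls synaptic vesicle release in zebrafish, had 12470.1 and 20540.0 (log2 ratio 0.72, interval 0.69 to 0.75). miR-132-5p, of a gene induced by neuronal activity, had 84.7 and 135 (log2 ratio 0.66, interval 0.27 to 1.08), from 79 and 147 reads. The vehicle was the highest of the 4 libraries for each of these, which their choice by the vehicle and the blank favours.

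The neural lists around them were mixed. All 3 neurogenic entries were above 0, beside 56% of all miRNAs, with miR-9-5p, the most abundant, at a log2 ratio of 0.12 (0.10 to 0.14). Of the 8 neuronal entries, 6 had an interval above 0 and 2 below, beside 42.7% and 28.6% of all miRNAs. The lowest was miR-138, also the most abundant, at a log2 ratio of -0.35 (-0.37 to -0.33). Of the 5 neuronal activity entries, miR-129-5p was the most abundant, at a log2 ratio of 0.04 (-0.03 to 0.10), while miR-129-3p was lower in the vehicle, with 809 normalized counts in the blank and 576 (log2 ratio -0.49, interval -0.64 to -0.33). The medians of the 3 lists were 0.21, 0.21 and -0.08.

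The let-7 family, which accumulates as tissues differentiate, lay mostly above 0. Of its 10 entries, 8 had a counting interval above 0 and 0 below, beside 42.7% and 28.6% of all miRNAs, and 3 were past 1.5-fold and higher, beside 11.1%, with a median log2 ratio of 0.27. let-7d had 4145 normalized counts in the blank and 6863 in the vehicle (log2 ratio 0.73, interval 0.67 to 0.78), let-7j 608 and 993 (log2 ratio 0.71, interval 0.56 to 0.86), and let-7h 605 and 935 (log2 ratio 0.63, interval 0.48 to 0.78). The most abundant entry, let-7g, was at a log2 ratio of -0.01 (-0.05 to 0.04), and its interval held 0. Entries of this family differ by very few bases, and how reads matching several of them were assigned is not given in the sources used here.

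The Hox cluster miRNAs divided by number. All 4 entries of miR-196, which pairs with Hox8 class messengers, were higher in the vehicle, beside 56% of all miRNAs. Of the 4, 3 were past 1.5-fold and higher, beside 11.1% of all miRNAs. miR-196c had 712 normalized counts in the blank and 1247 in the vehicle (log2 ratio 0.81, interval 0.67 to 0.94). miR-196d had a log2 ratio of 0.69 (0.57 to 0.82), miR-196a 0.59 (0.50 to 0.68) and miR-196b 0.48 (0.39 to 0.58). The miR-10 entries lay between log2 ratios of -0.22 for miR-10b and 0.31 for miR-10d-3p, the minor arm of its hairpin. The far more abundant miR-10b, miR-10c, miR-10a-5p and miR-10d-5p lay between -0.22 and 0.005. The median of the 10 entries was 0.16.

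Further members past 1.5-fold belonged to the miR-130 and miR-34 families. miR-301b of the miR-130 seed family had 1162 normalized counts in the blank and 2108 in the vehicle (log2 ratio 0.86, interval 0.75 to 0.96), and miR-301c 13296 and 20067 (log2 ratio 0.59, interval 0.56 to 0.63). The 3 miR-130 entries were all lower in the vehicle, beside 103 of all 234 miRNAs. They ranged from a log2 ratio of -0.33 for miR-130b to -0.16 for miR-130c. miR-454b, the most abundant of the list, was at -0.07 (-0.09 to -0.06). Members of 1 seed family thus lay on both sides of 0. miR-34b, a miRNA of ciliated cells, had 117 and 206.2 (log2 ratio 0.81, interval 0.48 to 1.16), where miR-34a, the most abundant of its list, had 0.49 (0.40 to 0.59) and miR-34c -0.18 (-0.54 to 0.18).

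In the digestive organs, miR-459-5p had 11933 normalized counts in the blank and 18088 in the vehicle (log2 ratio 0.60, interval 0.57 to 0.63), and its other arm miR-459-3p 0.26 (0.18 to 0.35). miR-216a of the pancreas had 1474 and 2231 (log2 ratio 0.60, interval 0.50 to 0.69). The other digestive miRNAs stayed within 1.5-fold, with miR-192 at a log2 ratio of 0.16 (0.15 to 0.16), miR-216b at 0.08 (0.05 to 0.11), miR-217 at 0.09 (-0.01 to 0.19), and miR-122 of the liver at -0.31 (-0.37 to -0.25). The miR-194 entries of the gut were both below 0, at -0.16 and -0.08. The liver and gut list had 3 of 6 entries above 0, beside 56% of all miRNAs, and a median of 0.04. In the list of pancreas and endocrine cells, 6 of 6 entries were above 0, beside the same 56%. Of their intervals, 4 lay above 0 and 0 below, beside 42.7% and 28.6% of all miRNAs, with a median log2 ratio of 0.16. miR-31, a miRNA on no list, had 152 normalized counts in the blank and 254 in the vehicle (log2 ratio 0.73, interval 0.44 to 1.04), and in the BDE47 libraries 139.7 and 247, so that the 500 μg/L library was nearly as high as the vehicle.

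The 5 miRNAs lower in the vehicle past 1.5-fold were miR-737 and miRNAs of smooth muscle, mesenchyme and the miR-19 group. miR-145, which with miR-143 marks smooth muscle and helps gut muscle to mature in zebrafish, had 4321 normalized counts in the blank and 2362 in the vehicle, a log2 ratio of -0.87 (-0.94 to -0.80). The BDE47 libraries held 3799 and 4614, so the vehicle was the lowest of the 4. miR-143 had a log2 ratio of 0.12 (0.11 to 0.13), on the other side of 0. miR-214, a mesenchymal miRNA that tunes hedgehog signalling in zebrafish muscle, had 15126 and 9313 (log2 ratio -0.70, interval -0.74 to -0.66), with 13728 and 16849.9 in the BDE47 libraries.

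miR-19, whose genes lie in the miR-17 to miR-92 clusters, was lower in the vehicle in 4 of its 6 entries, beside 103 of all 234 miRNAs. miR-19b-3p had 20991 normalized counts in the blank and 12039.9 in the vehicle (log2 ratio -0.80, interval -0.83 to -0.77), and miR-19d had 7351 and 4501 (log2 ratio -0.71, interval -0.76 to -0.65). miR-19c had a log2 ratio of -0.55 (-0.63 to -0.46) and miR-19b-5p -0.49 (-1.03 to 0.02), whose interval reached 0. The exceptions were both arms of miR-19a, with miR-19a-3p at a log2 ratio of 0.05 (-0.02 to 0.12) and miR-19a-5p at 0.75 (0.52 to 0.99), the latter with 248 normalized counts in the blank and 417 in the vehicle. The list of the miR-17 to miR-92 clusters as a whole had a median log2 ratio of 0.03 over 20 entries and the most abundant, miR-92a, was at 0.05 (0.04 to 0.06).

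The fifth miRNA past 1.5-fold and lower was miR-737, with 14 reads in the blank and 10 in the vehicle and an interval of -2.04 to 0.56 that held 0. The values that followed were nearer to 0. miR-206 of skeletal muscle had a log2 ratio of -0.51 (-0.58 to -0.43), the fish miRNA miR-2190 -0.47 (-0.56 to -0.38), miR-193a -0.45 (-0.82 to -0.09) and miR-730 -0.36 (-0.53 to -0.19). miR-181a-3p had a log2 ratio of -0.33 (-0.36 to -0.31) and miR-23a -0.33 (-0.56 to -0.11). The intervals of these 6 all left out 0, and each value was within 1.5-fold.

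**Figure D3:**
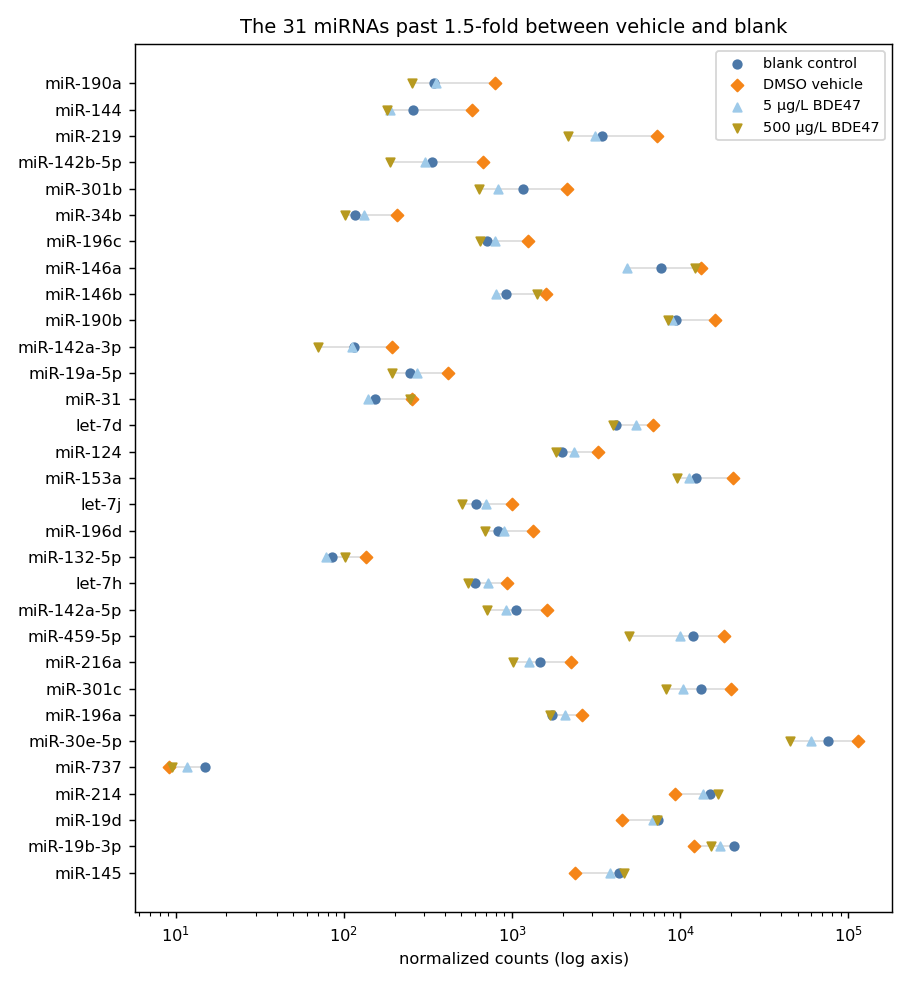
Normalized counts (horizontal log axis) in each of the 4 libraries for the 31 miRNAs past 1.5-fold between vehicle and blank, ordered by that ratio, with 1 library per condition. The vehicle (diamonds) is at the right end for the upper 26, with miR-146a, miR-146b and miR-31 at 500 μg/L close to it, and at the left end for the lower 5, where miR-737 has few reads. The choice of these 31 by the vehicle and the blank favours both ends.

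Some tissue and family lists held no miRNA past 1.5-fold. The tissue lists among them were muscle, endothelium, sensory cells, eye, epithelium and skin. Over 31 lists of miRNAs by tissue or family, 13 had no member past 1.5-fold, and 4 had a median log2 ratio above 0.5, namely inflammation, miR-101 with miR-190, white blood cells and the myelin-related pair. The lists had 2 to 20 tested entries, and the medians rest on few values. They were chosen with earlier results of these data known, and miR-101 and miR-190 were grouped as miRNAs lowered in this series. That choice can favour a high median. The muscle list had a median log2 ratio of 0.09, with 5 of 8 entries above 0, beside 56% of all miRNAs. Its most abundant, miR-133a-3p, was at 0.04 (0.02 to 0.07) and miR-1 at 0.43 (0.30 to 0.56). Its most different, miR-206, was at -0.51 (-0.58 to -0.43). The sensory list had a median log2 ratio of 0.001, from -0.14 for miR-182-3p to 0.18 for miR-96.

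The miRNAs of the body surface and the eye stayed within 1.5-fold. miR-205 had a log2 ratio of -0.25 (-0.26 to -0.24), miR-203a, which limits the growth of skin progenitors in mammals, had 0.46 (0.43 to 0.48), and miR-203b-3p 0.21 (0.19 to 0.22). The 6 epithelial entries of miR-141, miR-200 and miR-429 lay between -0.16 and 0.24, with miR-200a, the most abundant, at 0.10 and miR-429a the highest. miR-184 and miR-204 of the eye had log2 ratios of -0.01 (-0.03 to 0.0026) and -0.14 (-0.16 to -0.12). The skeletal list apart from miR-214 lay between log2 ratios of -0.14 for miR-140-3p and 0.19 for miR-140-5p.

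In the endothelial list all 7 entries were above 0, beside 56% of all 234 miRNAs. Of their intervals, 5 lay above 0 and 0 below, beside 42.7% and 28.6% of all miRNAs. The median log2 ratio was 0.18, with 0 past 1.5-fold, beside 13.2% of all miRNAs in either direction. miR-126, which keeps vessels intact in zebrafish, had its highest entry in miR-126b-5p, with 10789.8 normalized counts in the blank and 15980.2 in the vehicle (log2 ratio 0.57, interval 0.53 to 0.60), and miR-221, the most abundant, had 0.37 (0.35 to 0.40). The hypoxia list was also above 0 in 4 of 4 entries, again beside 56% of all miRNAs. Its entries ranged from 0.03 to 0.31, with miR-731 at the top and miR-462 the most abundant at 0.17 (0.13 to 0.21).

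Among the remaining families, miR-181 was lower in the vehicle in 4 of 4 entries, beside 103 of all 234 miRNAs. Each of its intervals lay below 0, beside 28.6% of all miRNAs. miR-181a-5p was at a log2 ratio of -0.23 (-0.23 to -0.22) and miR-181b at -0.17 (-0.18 to -0.16), with a median of -0.20. The miR-30 family was below 0 in 4 of 6 entries, beside the same 103 of 234. By contrast, miR-30e-5p had 76063 normalized counts in the blank and 114119 in the vehicle (log2 ratio 0.59, interval 0.57 to 0.60), which placed it just past 1.5-fold. miR-101a was at a log2 ratio of 0.16 (0.13 to 0.18) and miR-101b at 0.53 (0.43 to 0.63), both above 0 like the miR-190 paralogs. The miR-99, miR-100 and miR-125 list had a median log2 ratio of 0.14, with miR-100 the highest at 0.39 (0.36 to 0.42) and miR-125a the most abundant at 0.14 (0.12 to 0.17).

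The last families gave small values. Medians were -0.08 for miR-15, miR-16 and miR-457, with miR-15b the most abundant at -0.25 (-0.28 to -0.22) and miR-15a-3p the highest at 0.38 (-0.33 to 1.13). For miR-23, miR-24 and miR-27 the median was -0.02, with miR-27b at 0.06 (0.05 to 0.07), and for miR-26 and miR-29 it was 0.03, with miR-26b at 0.04 (0.03 to 0.05) and miR-29b at 0.36 (0.17 to 0.55). The 3 miR-430 entries tested had a median log2 ratio of 0.01, from -0.18 for miR-430b with 0.01 for miR-430a, the most abundant, and no interval left out 0. miR-735 had 148 normalized counts in the blank and 124.6 in the vehicle (log2 ratio -0.25, interval -0.60 to 0.10). The 57 miRNAs in no list had a median log2 ratio of -0.08. Of these 57, 1 was higher and 1 lower past 1.5-fold, beside 11.1% and 2.14% of all 234 miRNAs. The lists were chosen with earlier results of these data known, which can favour this difference.

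**Figure D4:**
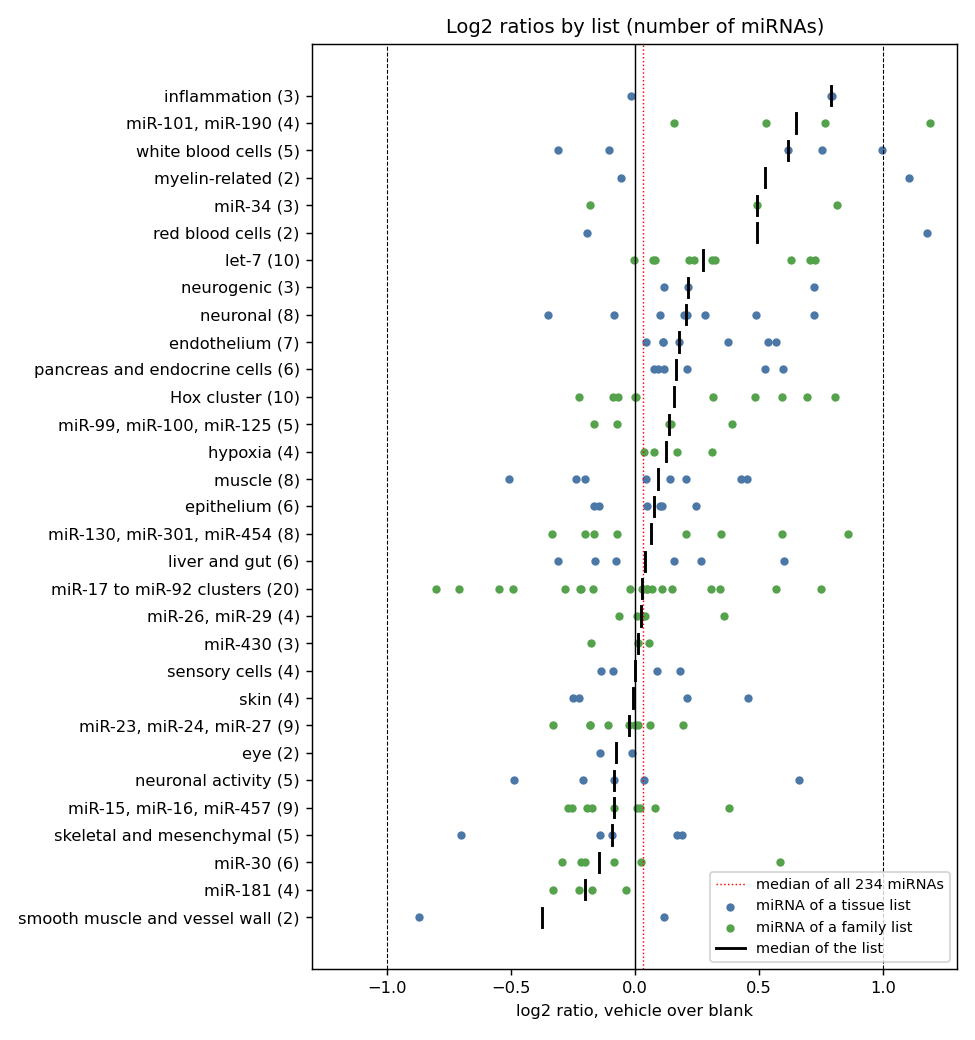
Log2 ratio of the vehicle over the blank (horizontal axis) for each miRNA of the 31 lists, with the number of miRNAs in brackets, blue points for tissue lists, green points for family lists and a black bar at the median of each list. Most medians lie near the dotted line at the median of all 234 miRNAs (0.032), and the inflammation, miR-101 and miR-190, white blood cell and myelin-related medians lie above 0.5. The lists were chosen with earlier results of these data known.

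Neighbouring miRNA genes, which can share a primary transcript, did not always give similar ratios. In the RefSeq annotation of the GRCz12tu assembly, used here for names and neighbours only, 209 miRNA names matched a gene after the arm was removed. With less than 10 kb between successive starts and without regard to strand, 19 groups held at least 2 matched miRNAs of a single gene each. The range of log2 ratios within a group had a median of 0.32 and was past 1.5-fold (0.58) in 7 groups, and in 8 groups all entries had 1 sign. How often unrelated miRNAs would share a sign was not computed.

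The widest group, which also held the most entries (7), was that of miR-19b, miR-20a, miR-19a and miR-18a. It ran from a log2 ratio of -0.80 for miR-19b-3p to 0.75 for miR-19a-5p, with miR-20a-5p at 0.34, miR-20a-3p at -0.28 and miR-18a at 0.31. Next came miR-451 and miR-144, described above, at a range of 1.37, and then miR-301b, miR-454b and miR-130b at 1.19. In the groups of miR-25, miR-19d and miR-93 and of miR-363, miR-19c, miR-20b and miR-18c, the miR-19 member was the lowest, and its neighbours lay between log2 ratios of -0.17 for miR-20b and 0.15 for miR-18c. The intervals of miR-19b-3p, miR-19d and miR-19c thus lay below those of all single-gene neighbours of other numbers. miR-19b-5p and both arms of miR-19a did not lie apart in this way. In the group of miR-19b, miR-17a and miR-92a were left out because they have several genes.

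Other groups were tight. miR-15c and miR-16a had log2 ratios of -0.27 and -0.17, miR-30d and miR-30b -0.29 and -0.20, and miR-462 and miR-731 0.17 and 0.31. miR-200b, miR-200a and miR-429a had log2 ratios of 0.11, 0.10 and 0.24. In these 4 groups all members lay on 1 side of 0. The sensory group of miR-183, miR-96 and miR-182 ranged over 0.32 around 0, and miR-192 and miR-194a over 0.32 with opposite signs.

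**Figure D5:**
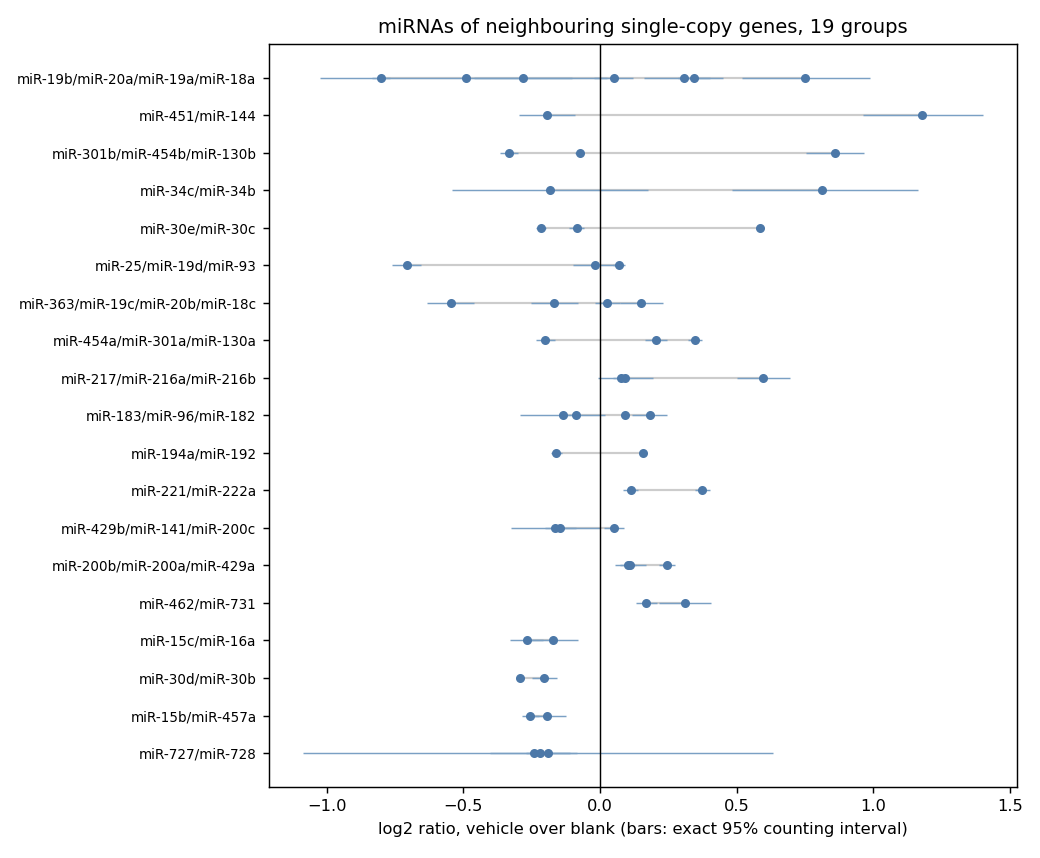
Log2 ratio of the vehicle over the blank (horizontal axis) for the miRNAs of 19 groups of neighbouring single-copy genes, ordered by range, with exact 95% counting intervals as bars and a grey line over each range. The upper 7 groups are wider than 1.5-fold, and the lower 8 have ranges under 0.3.

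The arms of a hairpin, which can come from 1 precursor, were compared next. Arms were paired by name, and names with several genes, 49 of the 209 matched above, were not left out. For such names the arms can come from more than 1 precursor. Of 32 hairpins with both arms tested, 16 had arms of the same sign and 14 had arms whose counting intervals did not overlap. The median absolute difference was 0.31 on the log2 scale. With 131 of all 234 miRNAs above 0 and 103 below, unrelated miRNAs would often share a sign too, and that share was not computed. The median half-width over all 234 miRNAs was only 0.072. How often the intervals of unrelated miRNAs would lie apart was not computed either. The more abundant arm was the same in both libraries for 32 of 32. The largest difference was that of miR-132, where miR-132-5p was at a log2 ratio of 0.66 (0.27 to 1.08) and miR-132-3p at -0.21 (-0.31 to -0.10), so that the 5p arm made up 5.16% of the reads of both arms in the blank and 9.09% in the vehicle.

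For miR-30e, the 5p arm went from 79.6% of both arms in the blank to 86.1% in the vehicle, with miR-30e-3p at a log2 ratio of -0.09 (-0.11 to -0.06). For miR-19a, the 5p arm went from 7.47% to 11.6%. The intervals of the arms lay apart for these hairpins and for miR-132. The arms of miR-18b differed by 0.79, with miR-18b-5p at a log2 ratio of 0.57 (0.31 to 0.84) and miR-18b-3p at -0.22 (-1.20 to 0.74), and those of miR-2185 by 0.73, with miR-2185-5p at -0.32 (-0.75 to 0.11) and miR-2185-3p at 0.42 (-0.78 to 1.75). Their 3p arms had 20 and 10 reads in the blank, and the intervals overlapped.

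All 4 libraries were then set side by side for each of the 234 miRNAs. The vehicle was the highest of the 4 at 84 miRNAs and the lowest at 76, and the blank was the highest at 33 and the lowest at 40. The 5 μg/L library was the highest at 43 and the lowest at 42, and the 500 μg/L library at 74 and 76. The vehicle and the 500 μg/L library thus held the outer values more often than the blank and the 5 μg/L library. With each library scaled to its listed reads in place of the size factors, the vehicle was the highest at 103 and the lowest at 46. In the 31 miRNAs past 1.5-fold the vehicle held an outer value each time, which their choice by the vehicle and the blank favours. The vehicle library entered each of these counts, and with 1 library per condition an effect of DMSO and a difference between libraries cannot be told apart.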

How the data were processed

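The members and lists were chosen with earlier results of these data known. Small RNA of pooled whole larvae was sequenced, 1 library per condition, with a small RNA kit per the methods of the study, while the labels name a general RNA kit. The authors filtered reads by quality, adaptor and a length of at least 17 bases, mapped them to zebrafish miRNAs of miRBase, and deposited a signal, namely read counts divided by 1 size factor per library. All positive values (100%) of each library were whole multiples of 1 number within 0.001 reads, so reads could be read back, and the factors equalled the median ratio to the geometric mean of the libraries, a scaling that assumes that most miRNAs do not change. Mapping of reads that match several miRNAs is not given in the sources used here.

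Log2 ratios were computed after adding 1, over miRNAs with a mean of at least 10 over the 4 libraries. Intervals of the ratios were exact Clopper-Pearson intervals at 95%, from the reads of each miRNA in the blank and the vehicle and from the size factors. With 1 library per condition there is no test between conditions, and Fisher's exact test compares libraries. The test in EBSeq that the authors used was not run. The miRNAs named were those past 2-fold, the 15 largest rises and falls whose interval left out 0, the 20 most abundant, the most abundant and most different member of each of 31 lists, the 5 hairpins whose arms differed most and those named by the study. let-7j, let-7h, miR-196d, miR-196a, miR-301c and other list members were added after their values were seen. The code was tested on simulated data. Other pseudocounts, filters, scalings and a 1.5-fold threshold were tried. Sequences were not used here. The tools were matplotlib 3.10.9, scipy 1.17.1, pandas 2.3.3 and numpy 2.4.6 under Python 3.11.15.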

Additional observations from a re-analysis of the deposited data

How the results depend on the processing

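The count past 2-fold was 3, all higher in the vehicle, under both other pseudocounts, a mean of at least 100, a median ratio of the controls set to 1 and a filter on the control libraries alone, the last chosen after seeing the data. Without a filter it was 7, with 5 higher and 2 lower, all the added ones having under 10 normalized counts on average. The 26 higher past 1.5-fold became 20 with the median ratio set to 1 and 33 without a filter, and the 5 lower became 8 without a filter. A 1.5-fold threshold gave 31 and Fisher's exact test on the reads 170. Scaling to listed reads moved all log2 ratios by 0.030, which brought miR-142b-5p past 2-fold. That scaling also shifted the BDE47 libraries against the controls. The count of miRNAs at which the vehicle was the lowest of the 4 libraries went from 76 to 46. The same count for the 5 μg/L library went from 42 to 71. Of 529 alternative values for named miRNAs, 74 lay outside the counting interval, all of them under another scaling, and 4 changed sign, where the log2 ratio was at most 0.013. Of 186 alternative medians of lists, 0 moved by over 0.1 and 8 changed sign. Depth limits miRNAs under 100 normalized counts. No paired analysis was possible because each condition has 1 library.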
